A study of Mus musculus with 2 samples.

Results

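The adrenergic receptor genes are the genes for the receptors of noradrenaline and adrenaline. They were taken by name from the deposited count tables, which hold 23912 genes, and 6 of them are described here: Adra1a, Adra1b, Adra1d, Adra2a, Adra2c and Adrb1. Nuclei of mouse hindbrain neurons were sequenced by 10x single-nucleus RNA-seq. A retrograde virus injected into the lumbar spinal cord carried a nuclear green fluorescent protein (H2B-GFP), and fluorescent nuclei were sorted, so the sample holds neurons whose axons reach the lumbar cord. The mice were of the TRAP2 strain, a line in which recombination can mark neurons that were active in a chosen window, and were 8-12 wk old. The groups were SNI with brush and hot water bath, which is all that the labels say of the treatments. All animals shared the strain and the injection, and neither an untreated group nor an SNI group without brush was analysed here. Hindbrains of the same treatment were pooled before nuclei were isolated, so each treatment is 1 library with no replicate, and the sources used here do not say how many animals entered a pool.

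Alpha1 receptors (Adra1a, Adra1b, Adra1d) act through Gq proteins, phospholipase C and calcium release and mostly excite neurons. Alpha2 receptors (Adra2a, Adra2c) act through Gi/o proteins, which open potassium channels and close calcium channels, and beta receptors (Adrb1) act through Gs proteins and adenylyl cyclase. Noradrenergic cell groups of the brainstem innervate both the raphe and the spinal cord, and in rats noradrenaline drives the firing of serotonergic raphe neurons through alpha1 receptors.

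A stretch of coding sequence around the Asp-Arg-Tyr codons, at the end of the third membrane segment where these receptors meet the G protein, is shown for each gene because it places the 3 alpha1 genes, the 2 alpha2 genes and the beta gene side by side. The sequences are from GENCODE vM21 transcripts on mm10, run 5′ to 3′ on the coding strand, and have the Asp-Arg-Tyr codons in capitals.
Adra1a (chr14:66637899-66637997, plus strand): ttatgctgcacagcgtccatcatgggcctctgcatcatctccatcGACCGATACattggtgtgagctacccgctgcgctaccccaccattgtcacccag
Adra1b (chr11:43835612-43835710, minus strand): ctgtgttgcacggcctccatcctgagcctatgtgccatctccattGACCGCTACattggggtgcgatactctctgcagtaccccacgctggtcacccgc
Adra1d (chr2:131561557-131561655, minus strand): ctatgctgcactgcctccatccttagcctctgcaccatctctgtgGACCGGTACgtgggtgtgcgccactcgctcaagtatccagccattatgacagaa
Adra2a (chr19:54046602-54046700, plus strand): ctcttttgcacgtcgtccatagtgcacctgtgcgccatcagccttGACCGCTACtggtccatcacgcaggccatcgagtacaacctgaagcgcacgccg
Adra2c (chr5:35280282-35280380, plus strand): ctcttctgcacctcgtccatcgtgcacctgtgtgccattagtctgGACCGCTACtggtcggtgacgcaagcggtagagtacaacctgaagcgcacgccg
Adrb1 (chr19:56722789-56722887, plus strand): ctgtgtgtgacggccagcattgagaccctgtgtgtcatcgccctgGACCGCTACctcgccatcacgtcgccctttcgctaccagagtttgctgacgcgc
Over this window of 99 bases Adra2a and Adra2c were 85.9% identical, Adra1a and Adra1b 74.7%, and Adra1a and Adrb1 53.5%. Over the whole coding sequence identity was 66.5% between Adra2a and Adra2c and 58.8% between Adra1a and Adra1b. The longest identical run in the annotated transcripts was 26 bases for Adra2a with Adra2c and 15 bases for Adra1a with Adra1b. Adra1a spans 135.9 kb (mouse chromosome 14, 66635251 to 66771168, plus strand) and Adra1b spans 126.6 kb (chromosome 11, 43774606 to 43901210, minus strand), with exons covering 6.42% and 2.67% of these spans. Adra2a (chromosome 19, 54044151 to 54048982, plus strand, 4.83 kb) and Adra2c (chromosome 5, 35278319 to 35281763, plus strand, 3.44 kb) are exonic over their whole span in this annotation. Adrb1 (chromosome 19, 56722199 to 56733113, plus strand) spans 10.9 kb. Adra1d (chromosome 2, 131545850 to 131562283, minus strand, 16.4 kb) overlaps Gm14285 on the other strand.

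The SNI with brush library gave 286 nuclei and the hot water bath library 422 after removal of called doublets, with medians of 32852.5 and 36962 UMIs per nucleus (unique molecular identifiers, the counted transcripts) over all nuclei in the tables. The 2 libraries shared 0 barcodes. Each nucleus was assigned by its own UMIs: Tph2 nuclei have at least 10 UMIs of Tph2, the enzyme of serotonin synthesis, and of the rest with at least 3 transmitter UMIs, inhibitory nuclei take at least 75% of them from Gad1, Gad2 and Slc6a5 and glutamatergic nuclei at least 75% from Slc17a6. This gave 3 Tph2, 103 inhibitory and 112 glutamatergic nuclei in the SNI with brush library, against 26, 61 and 252 in the hot water bath library. In the SNI with brush library 16 further nuclei had more liver than neuron marker UMIs, against 0 in the hot water bath library, and 52 SNI with brush and 83 hot water bath nuclei were mixed or had too few transmitter UMIs. All 6 serotonergic markers, of which Tph2 itself defines the class, were found in the summed counts of Tph2 nuclei of both libraries. Dbh, which makes noradrenaline, was at 0 there. RNA of other tissues was more abundant in the SNI with brush library: the summed level of the choroid plexus markers was 221 to 254 CPM (counts scaled to a total of 1000000) in its 3 classes against 6.42 to 15.5 CPM in the hot water bath library, and that of the liver markers 23.4 to 57.5 against 0 to 1.83 CPM. Of the 4 choroid plexus markers, Ttr alone was counted in SNI with brush Tph2 and hot water bath inhibitory nuclei. The list had 2334 CPM in the liver-gene nuclei, so its sums do not tell choroid plexus from liver RNA. The part of RNA of other tissues and of depth in differences between the libraries was not tested.

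Over all nuclei in the tables, called doublets included, Adra1a was the most counted receptor gene, with 2878 UMIs. It was followed by Adra1b with 1011, Adrb1 with 113, Adra2c with 71, Adra2a with 63 and Adra1d with 8. Adrb3, another receptor gene of the family, had 59 UMIs, and Adra2b was not analysed here. Per kb of gene span the order differed. In the glutamatergic nuclei of the hot water bath library the levels were 0.72 CPM per kb for Adra2c, 0.60 for Adra1a, 0.31 for Adrb1, 0.28 for Adra1b, 0.27 for Adra2a and 0.012 for Adra1d. Per kb of exon they were 10.5 for Adra1b, 9.39 for Adra1a, 0.99 for Adrb1, 0.72 for Adra2c, 0.27 for Adra2a and 0.10 for Adra1d. The sources used here do not say whether reads in introns were counted, so levels are compared below within a gene only.

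Among the 3 classes Adra1a, the alpha1A receptor, was most abundant in Tph2 nuclei of the hot water bath library. It was not seen in the 3 Tph2 nuclei of the SNI with brush library. In SNI with brush Tph2 nuclei it had 0 of 151204 UMIs, which allows up to 19.8 CPM. In hot water bath Tph2 nuclei it had 501 CPM (exact 95% Poisson interval 460 to 545), with UMIs in 25 of 26 nuclei, a median of 17.5 UMIs and a maximum of 50. Within this class the SNI with brush level was thus at least 25.3-fold lower, with the limit of 3 UMIs taken over the class. That limit was 13.7-fold in nuclei with at most 0.5% mitochondrial UMIs, and the exact 95% interval of the log2 ratio reached up to -4.36, a smaller difference than the limit of 3 UMIs gives. In inhibitory nuclei Adra1a had 53.1 CPM (45.9 to 61.1) in the SNI with brush library and 223 CPM (204 to 244) in the hot water bath library. Of its 486 UMIs in the hot water bath inhibitory nuclei, 188 came from 5 nuclei of the cluster, described below, that holds all Tph2 nuclei. In glutamatergic nuclei Adra1a had 59.8 CPM (53.4 to 66.7) in the SNI with brush library and 81.9 CPM (76.4 to 87.7) in the hot water bath library. In the hot water bath library the classes therefore stood in the order Tph2, inhibitory, glutamatergic with intervals that did not overlap, while in the SNI with brush library the intervals of inhibitory and glutamatergic nuclei overlapped and Tph2 nuclei were lowest. These intervals and the limit of 3 UMIs cover counting error only, not variation between nuclei or animals, and the SNI with brush Tph2 class has 3 nuclei.

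**Figure D1:**
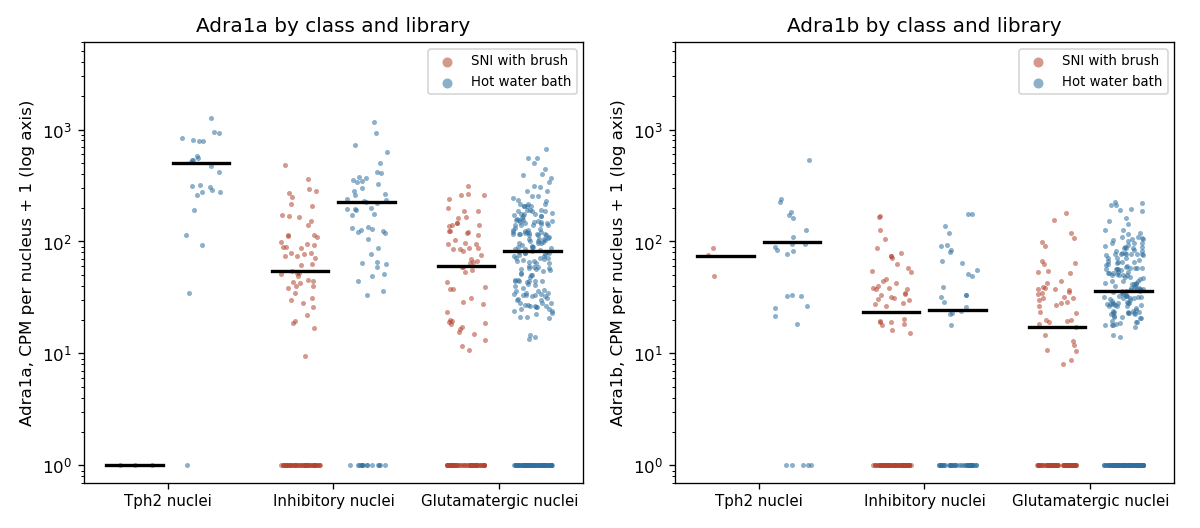
Adra1a (left) and Adra1b (right) in single nuclei, as CPM plus 1 on a log axis, for Tph2, inhibitory and glutamatergic nuclei of the SNI with brush (red) and hot water bath (blue) libraries. Each point is 1 nucleus, points at the bottom have 0 UMIs, and black bars are the summed CPM of the class. Adra1a is at 0 in all 3 Tph2 nuclei of the SNI with brush library and in 1 of the 26 of the hot water bath library.

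Adra1b, the alpha1B receptor, was higher in Tph2 nuclei than in both other classes in both libraries. Tph2 nuclei had 72.7 CPM (36.3 to 130) in the SNI with brush library, from 6, 3 and 2 UMIs in the 3 nuclei, and 97.7 CPM (80.0 to 118) in the hot water bath library, with UMIs in 21 of 26 nuclei. Inhibitory nuclei had 22.2 CPM (17.7 to 27.6) in the SNI with brush and 23.4 CPM (17.4 to 30.8) in the hot water bath library, which overlapped. Glutamatergic nuclei had 16.4 CPM (13.1 to 20.2) in the SNI with brush and 35.4 CPM (31.8 to 39.2) in the hot water bath library. The Tph2 intervals did not overlap those of the other classes of their own library.

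The class contrasts were tested on 6 sums, 3 classes by 2 libraries, with library as a block, over 14043 genes (edgeR's quasi-likelihood test, Benjamini-Hochberg adjustment). Of the 6 receptor genes, Adra1a, Adra1b and Adrb1 passed the filter on low counts, and Adra1d, Adra2a and Adra2c did not and have no test. Between Tph2 and glutamatergic nuclei, 1 of the 3 passed the adjusted threshold of 0.05, against 5.13% of all genes tested (2.11% higher and 3.02% lower): Adra1b rose in Tph2 nuclei by a log2 difference of 1.76 (SE 0.28, adjusted p = 0.014, edgeR), higher in 2 of 2 libraries. Between Tph2 and inhibitory nuclei, 1 of 3 passed, against 3.38% of all genes (1.33% higher and 2.04% lower): Adra1b, with a log2 difference of 1.89 (SE 0.30, adjusted p = 0.021, edgeR), again higher in 2 of 2. Between inhibitory and glutamatergic nuclei none passed, against 0.242% of all genes (0.128% higher and 0.114% lower). At an unadjusted p under 0.05 that contrast had 0 of the 3 by edgeR, and DESeq2 called none of them there. Both Adra1b calls were lost when library was left out of the model (adjusted p = 0.16 for each, edgeR), and the one against inhibitory nuclei also in nuclei with at most 0.5% mitochondrial UMIs (adjusted p = 0.051). Within libraries, the log2 ratio of Adra1b in Tph2 over glutamatergic nuclei was 2.21 (1.09 to 3.06) in the SNI with brush library and 1.47 (1.14 to 1.78) in the hot water bath library.

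Adra1a did not pass in any contrast by this test, and its 2 libraries went opposite ways in both Tph2 contrasts. Its log2 difference was 1.46 (SE 0.82, adjusted p = 0.39, edgeR) for Tph2 minus glutamatergic nuclei, 0.97 (SE 0.75, adjusted p = 0.55) for Tph2 minus inhibitory nuclei and 0.49 (SE 0.70, adjusted p = 1.00) for inhibitory minus glutamatergic nuclei. Without the filter on low counts the first pair passed (adjusted p = 9.0e-06 and 0.0039, edgeR), whereas DESeq2 gave log2 differences of 0.13 and -0.05 for them (adjusted p = 1.00 for each). For inhibitory over glutamatergic nuclei, the log2 ratio of Adra1a within a library was -0.17 (-0.43 to 0.09) for SNI with brush and 1.44 (1.28 to 1.61) for hot water bath. That of Adra1b was 0.44 (-0.01 to 0.89) for SNI with brush and -0.59 (-1.05 to -0.17) for hot water bath. For both genes the SNI with brush interval held 0, so these values show no order of the inhibitory and glutamatergic classes in that library. Adrb1 had log2 differences of -2.04 for Tph2 minus glutamatergic (SE 1.12, adjusted p = 0.38, edgeR) and -2.84 for Tph2 minus inhibitory nuclei (SE 1.06, adjusted p = 0.21), with 1 UMI in all Tph2 nuclei of both libraries together. With Tph2 nuclei taken from 5 UMIs these differences were -0.28 and -0.97. In the SNI with brush library alone, where Tph2 nuclei had no UMI of Adrb1, the log2 ratios were -0.15 and -0.68, values set by the added 0.5 UMI.

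**Figure D2:**
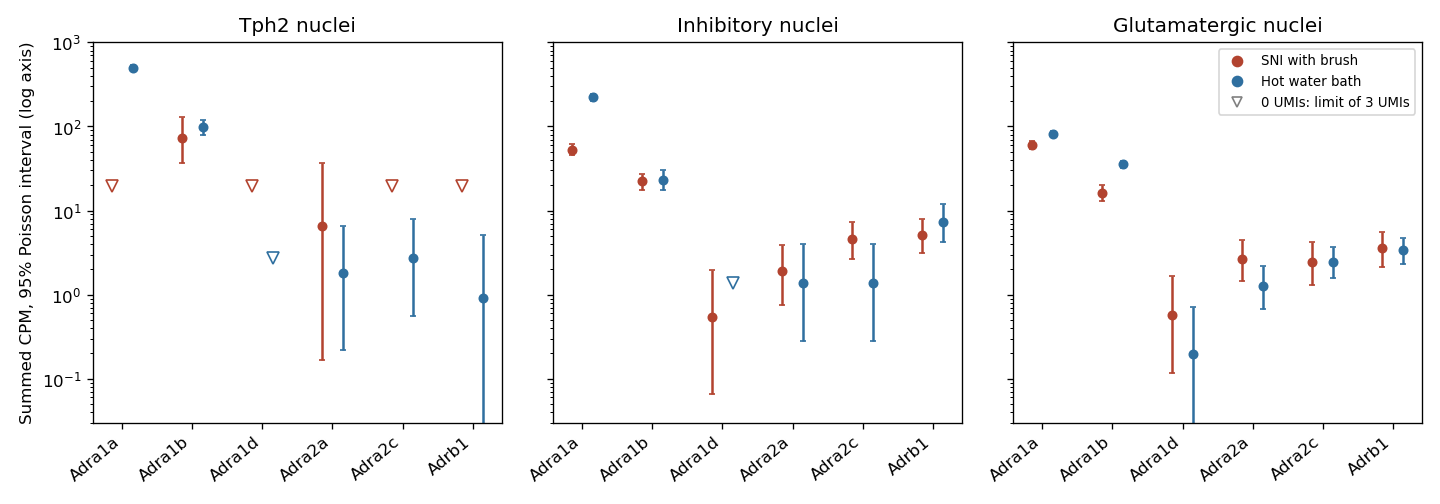
Summed CPM of the 6 receptor genes on a log axis in Tph2, inhibitory and glutamatergic nuclei, for SNI with brush (red) and hot water bath (blue), with exact 95% Poisson intervals, which cover counting error only. Open triangles mark genes with 0 UMIs at the level of 3 UMIs. Adra1a reaches 501 CPM in hot water bath Tph2 nuclei, and the 4 genes from Adra1d to Adrb1 lie at or below 7.34 CPM wherever they were counted.

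The remaining receptors were sparse. Adra1d, the alpha1D receptor, had 0 Tph2, 2 inhibitory and 3 glutamatergic UMIs in the SNI with brush library and 0, 0 and 2 UMIs in these classes of the hot water bath library, at or under the limit of 3 UMIs in every class. Adra2a, the alpha2A receptor, which damps transmitter release and firing, had 6.61 CPM in Tph2 (1 UMI), 1.90 CPM in inhibitory and 2.64 CPM (1.44 to 4.43) in glutamatergic nuclei of the SNI with brush library. Hot water bath nuclei had 1.83 CPM in the Tph2 (2 UMIs), 1.38 CPM in the inhibitory and 1.28 CPM (0.68 to 2.19) in the glutamatergic class. For Adra2a and Adra2c, every pair of neighbouring levels had overlapping intervals. Adra2c, the alpha2C receptor, had 0 UMIs in Tph2 nuclei, 4.61 CPM (2.68 to 7.38) in inhibitory and 2.45 CPM in glutamatergic nuclei of the SNI with brush library. In the hot water bath library it had 3 UMIs in Tph2 nuclei, 1.38 CPM (0.28 to 4.02) in inhibitory and 2.46 CPM in glutamatergic nuclei.

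Adrb1, the beta1 receptor, was the most counted of the sparse genes. It had 0 UMIs in Tph2, 5.15 CPM (3.10 to 8.04) in inhibitory and 3.58 CPM (2.16 to 5.59) in glutamatergic nuclei of the SNI with brush library. It had 1 UMI in Tph2, 7.34 CPM (4.19 to 11.9) in inhibitory and 3.35 CPM (2.32 to 4.68) in glutamatergic nuclei of the hot water bath library. Its inhibitory level was above its glutamatergic level in both libraries, with a log2 ratio of 0.52 (-0.47 to 1.52) for SNI with brush and 1.15 (0.17 to 2.03) for hot water bath, and it did not pass edgeR's test (log2 difference 0.79, SE 0.43, adjusted p = 1.00).

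Shares of nuclei with a UMI were compared after thinning each nucleus to 9000 UMIs, a depth that left out 0 nuclei. In the SNI with brush library Adra1a was then seen in 0 of 3 Tph2 nuclei (0 to 70.8%), 29.1% (exact 95% interval 20.6 to 38.9%) of inhibitory and 28 of 112 (17.3 to 34.1%) glutamatergic nuclei. In the hot water bath library it was seen in 76.9% (56.4 to 91.0%) of Tph2, 57.4% (44.1 to 70.0%) of inhibitory and 40.1% (34.0 to 46.4%) of glutamatergic nuclei. The hot water bath shares stood in the order of the CPM, but the intervals of neighbouring classes overlapped, and those of Tph2 and glutamatergic nuclei were apart. In the SNI with brush library the inhibitory and glutamatergic intervals overlapped on both measures, and the Tph2 interval overlapped both. Unthinned, the shares of Tph2, inhibitory and glutamatergic nuclei were 0 of 3, 51.5% and 51.8% for SNI with brush and 96.2%, 77.0% and 71.0% for hot water bath.

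Adra1b was seen after thinning in 1 of 3 Tph2, 18.4% of inhibitory and 15.2% of glutamatergic nuclei of the SNI with brush library, and unthinned in 3 of 3, 37.9% and 40.2%. In the hot water bath library it was seen after thinning in 46.2% of Tph2, 24.6% of inhibitory and 23.8% of glutamatergic nuclei, and unthinned in 80.8%, 37.7% and 63.1%. Adra2a, Adra2c and Adrb1 were seen after thinning in 0 to 6.80% of the nuclei of any class. Liver-gene nuclei, thinned to the same depth from a median of 20452 UMIs against 33205 in SNI with brush neurons, gave 0 of 16 for each of these genes. With 3 nuclei as the limit for a count of 0, this allows a share of up to 18.8% (exact 95% interval 0 to 20.6%). The 16 nuclei are thus too few to tell whether the low shares differ from those of liver-gene nuclei. The hot water bath library had no liver-gene nuclei to compare. RNA of other tissues inside neurons is not measured by this comparison, so whether the low shares lie above background is not shown.

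Adra1a and Adra1b were often found in the same nucleus. Without thinning, both had UMIs in 0 of 3 Tph2, 28 of 103 inhibitory and 32 of 112 glutamatergic nuclei of the SNI with brush library, and in 21 of 26 Tph2, 17 of 61 inhibitory and 123 of 252 glutamatergic nuclei of the hot water bath library. In hot water bath Tph2 nuclei 4 had Adra1a alone, 0 had Adra1b alone and 1 had neither. After thinning, SNI with brush neurons with both were 23.5% of those with Adra1a and 37.2% of those with Adra1b. For hot water bath neurons these shares were 29.4% and 56.3%. Adrb1 was seen with Adra1a after thinning in 3 of 270 SNI with brush neurons and 6 of 422 hot water bath neurons. Deeper nuclei show more genes, so these shares describe the libraries and say nothing of dependence between the genes.

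The Tph2 nuclei of the libraries also differed in a serotonergic and a GABA synthesis gene. The serotonin transporter Slc6a4 had UMIs in 3 of 3 SNI with brush nuclei (1118 CPM) and in 17 of 26 hot water bath nuclei (312 CPM), and Gad2 had 86.0 CPM in the SNI with brush and 317 CPM in the hot water bath nuclei. The vesicular transporter Slc18a2 was close in level, at 820 CPM in the SNI with brush and 768 CPM in the hot water bath nuclei. In the hot water bath library Adra1a had 452 CPM (402 to 505) in the 17 Tph2 nuclei with Slc6a4 and 580 CPM (510 to 658) in the 9 without. Adra1b had 114 CPM (90.0 to 143) in those with Slc6a4 and 71.3 CPM (48.1 to 102) in those without. High Adra1a was thus found in hot water bath Tph2 nuclei with and without Slc6a4, and 16 of the 17 with Slc6a4 held it. This split was made after the values had been seen.

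Inhibitory nuclei were divided by Slc6a5, the glycine transporter of glycinergic neurons. Adra1a had 50.7 CPM (42.9 to 59.4) in 74 nuclei with at least 3 Slc6a5 UMIs and 67.7 CPM (45.7 to 96.7) in 17 nuclei with none in the SNI with brush library. In the hot water bath library it had 78.5 CPM (59.8 to 101) in 20 nuclei with Slc6a5 and 306 CPM (277 to 336) in 40 without. Adra1a was thus lower in nuclei with Slc6a5 in both libraries, with intervals that were apart in the hot water bath library and overlapped in the SNI with brush library. Adra1b had 24.5 CPM with and 11.3 CPM without Slc6a5 in the SNI with brush library, and 22.6 CPM with and 22.9 CPM without it in the hot water bath library. Of the hot water bath inhibitory nuclei, 5 lay in the cluster led by Tph2, Slc6a4 and Ddc and had 701 CPM of Adra1a (604 to 808). The other 56 had 156 CPM (139 to 175), and the SNI with brush library had no inhibitory nucleus in that cluster.

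Leiden clustering without the 6 receptor genes gave 20 clusters, 19 of them with at least 10 nuclei, named here by number and leading genes. Adra1a ranged from 2.70 CPM in cluster 19 (Maf, Ebf2), found in the SNI with brush library alone, to 481 CPM in cluster 8 (Tph2, Slc6a4, Ddc). In cluster 8 its 4 SNI with brush nuclei had 0 UMIs, and its 31 hot water bath nuclei had 540 CPM (502 to 581). The next were cluster 16 (Adamts12, Cpa6, Penk), all 16 nuclei inhibitory, with 301 CPM from 13 UMIs in 1 of 2 SNI with brush nuclei and 285 CPM (241 to 336) in all 14 of the hot water bath library, and cluster 0 (Creb5, Mei4, Crh), with 32 glutamatergic nuclei of 42. In cluster 0 the 7 SNI with brush nuclei had 183 CPM (135 to 242) and the 35 hot water bath nuclei 206 CPM (179 to 235). Cluster 7 (Fam107b, Slc17a7, Col27a1) was low in both libraries, at 9.29 CPM (4.01 to 18.3) in SNI with brush and 5.62 CPM (0.68 to 20.3) in hot water bath nuclei.

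Among neurons Adra1b was spread differently over the clusters. Over both libraries together it was highest in cluster 8, where SNI with brush nuclei had 83.8 CPM (45.8 to 141) and hot water bath nuclei 82.1 CPM (67.6 to 98.8), and it stood at 56.9 to 60.9 CPM in clusters 14 (Antxrl, Reln, Glp1r), 0 and 13 (St18, Ndst4). In the SNI with brush library alone, 3 nuclei of cluster 4 had 108 CPM (51.6 to 198) from 10 UMIs, an interval that overlapped that of cluster 8. In cluster 2 (Gcg, Sulf1, Prlr), where Adra1a had 157 CPM, Adra1b had 1.87 CPM from 2 UMIs, next to 2.70 CPM from 1 UMI in cluster 19 and 12.3 CPM or more in the other clusters with at least 10 nuclei. Cluster 2 also had 9.37 CPM of Adrb1 and 7.49 CPM of Adra2a, from 10 and 8 UMIs. Cluster 7, low in Adra1a, had 9.86 CPM of Adrb1 and 6.57 CPM of Adra2a, from 12 and 8 UMIs, and cluster 9 (Slc32a1, Gad1) had 10.0 CPM of Adrb1. Across the 19 clusters, which share libraries and depth, the log2 levels of Adra1a and Adra1b had a Pearson r of 0.41. The genes most like Adra1a by that measure were Xrcc4 (r = 0.85), Izumo4 (0.83) and Sorbs2os (0.82), and those most like Adra1b were Raph1 (0.88), Myo10 (0.83) and Me1 (0.83). Without the liver gene cluster the last 3 had r of 0.79, 0.71 and 0.73, and other genes took their place: Ctbs (0.85), Nrcam (0.84) and Npas3 (0.83). For Adra1a the leading genes were then Fam124a (0.90), Stk32c (0.90) and Xrcc4 (0.87).

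**Figure D3:**
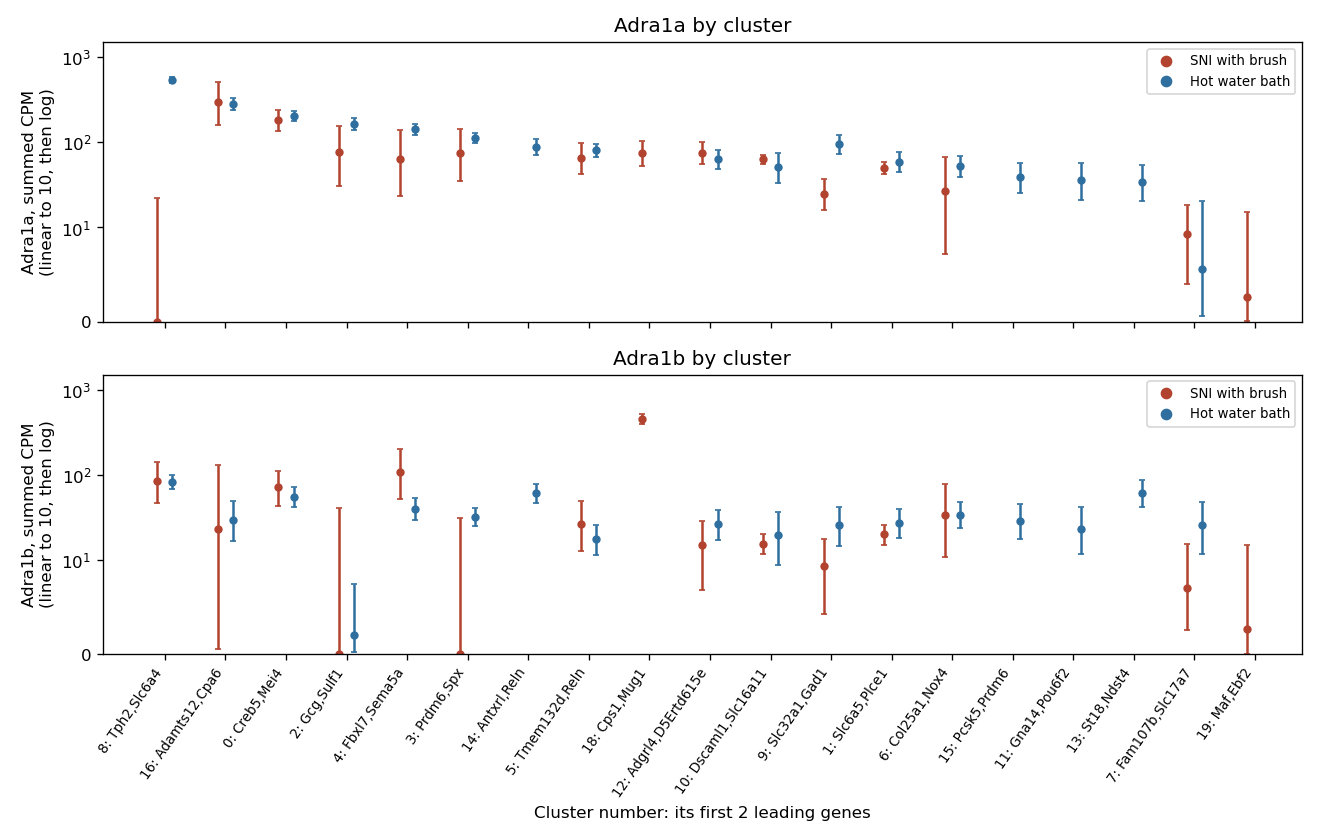
Adra1a (top) and Adra1b (bottom) by cluster, as summed CPM with exact 95% Poisson intervals, on an axis that is linear to 10 and logarithmic above, for SNI with brush (red) and hot water bath (blue). Clusters run from the highest to the lowest Adra1a level over both libraries, and a library with under 2 nuclei in a cluster has no point. Adra1a is at 0 in the SNI with brush nuclei of cluster 8 and at 540 CPM in its hot water bath nuclei, and Adra1b stands out in cluster 18, the liver gene cluster.

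Between the libraries, Adra1a was lower in SNI with brush neurons. Over all neurons it had 53.6 CPM (49.3 to 58.2) in 270 SNI with brush nuclei and 137 CPM (131 to 142) in 422 hot water bath nuclei, a log2 ratio of -1.35 (-1.48 to -1.22), where the median over 17534 genes with at least 20 UMIs was 0.23. At least 1.5-fold lower were 8.37% of these genes and at least 1.5-fold higher 30%. With 1 library a treatment there is no test, and each ratio compares these libraries. The log2 ratio was -2.07 (-2.32 to -1.83) in inhibitory nuclei, where 8.23% of genes were at least 1.5-fold lower and 31.2% higher. It was -0.45 (-0.65 to -0.27), short of 1.5-fold, in glutamatergic nuclei, where these shares were 8.46% and 26.1%. In Tph2 nuclei, where Adra1a had no UMI in the SNI with brush library, 16.5% of genes were at least 1.5-fold lower and 34.5% higher.

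Adra1b over all neurons had 19.3 CPM (16.8 to 22.1) in the SNI with brush and 36.0 CPM (33.1 to 39.0) in the hot water bath library, a log2 ratio of -0.90 (-1.13 to -0.67). It was more than 1.5-fold lower in glutamatergic nuclei, at -1.10 (-1.46 to -0.77), whereas inhibitory nuclei had -0.08 (-0.60 to 0.46) and Tph2 nuclei -0.37 (-1.47 to 0.47). The intervals of Adra2a, Adra2c and Adrb1 over all neurons included 0, with log2 ratios of 0.724 (-0.045 to 1.503), 0.54 (-0.18 to 1.27) and 0.17 (-0.40 to 0.73). Adra1a and Adra1b were thus the receptor genes of lower level in the SNI with brush library, and no interval of the other 3 excluded a ratio of 1.

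Different clusters held the classes of the 2 libraries. Of the inhibitory nuclei, clusters 10, 1 and 9 held 38.8%, 33.0% and 21.4% in the SNI with brush library, whereas clusters 16, 2 and 9 held 23.0% each, cluster 1 held 18.0% and cluster 8 held 8.20% in the hot water bath library. Within cluster 1 (Slc6a5, Plce1) the inhibitory nuclei had 41.9 CPM (32.3 to 53.4) of Adra1a in the SNI with brush and 37.0 CPM (21.1 to 60.0) in the hot water bath library, and within cluster 9 they had 28.0 CPM (16.8 to 43.7) in the SNI with brush and 121 CPM (91.0 to 158) in the hot water bath library. Of the glutamatergic nuclei, cluster 10 held 41.1% in the SNI with brush and 3.57% in the hot water bath library, and cluster 3 held 2.68% in the SNI with brush and 17.1% in the hot water bath library.

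Compared within clusters that had at least 5 nuclei of both libraries, a comparison added after the values had been seen, the interval of the Adra1a ratio mostly held 0. Cluster 8, with 4 SNI with brush nuclei, falls outside this limit, and there Adra1a had 0 CPM (0 to 22.1) in the SNI with brush and 540 CPM (502 to 581) in the hot water bath library. Of the 7 clusters inside it, 1 had an interval below 0, 0 had one above 0 and 6 had one that held 0. The exception was cluster 9, with 24.9 CPM in 32 SNI with brush nuclei, 95.5 CPM in 20 hot water bath nuclei and a log2 ratio of -1.92 (-2.69 to -1.24). In the largest clusters the ratio was 0.29 (-0.27 to 0.96) in cluster 10 and -0.23 (-0.68 to 0.25) in cluster 1. For Adra1b, 2 of the 7 clusters had intervals below 0, clusters 7 and 9, with log2 ratios of -1.82 (-3.63 to -0.21) and -1.42 (-2.81 to -0.19). An interval that holds 0 does not show that the levels were alike.

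**Figure D4:**
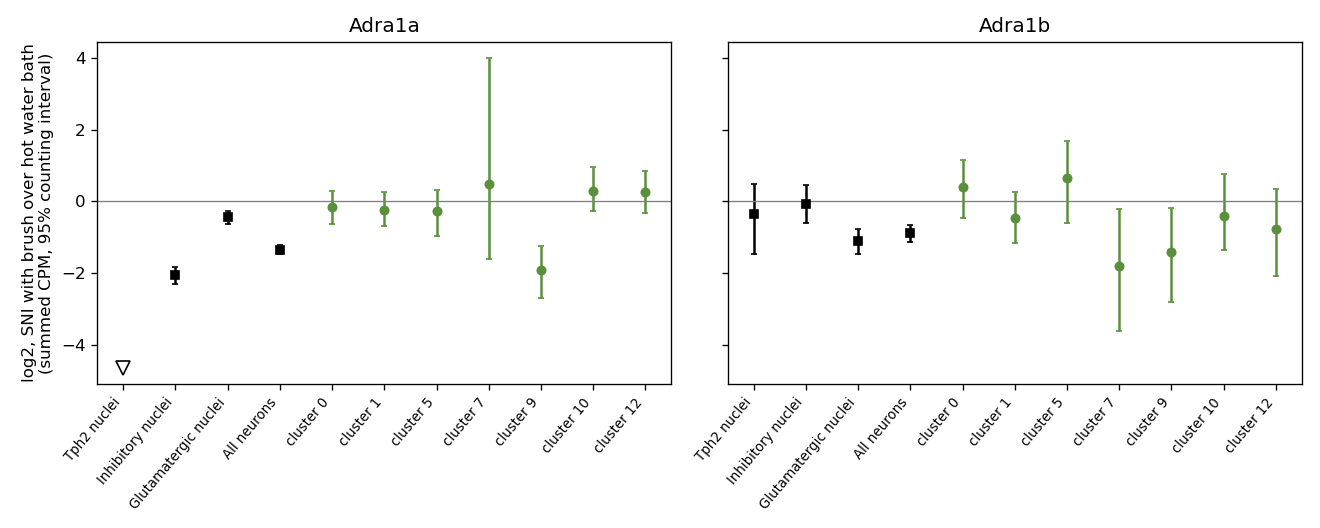
Log2 ratio of summed CPM, SNI with brush over hot water bath, for Adra1a (left) and Adra1b (right), in Tph2, inhibitory and glutamatergic nuclei and all neurons (black squares) and within clusters of both libraries of at least 5 nuclei each (green circles), with 95% counting intervals. The open triangle is a counting limit: Adra1a had 0 UMIs in the 3 SNI with brush Tph2 nuclei and, with 3 UMIs as the limit, was at least 25.3-fold lower. That limit does not cover variation between nuclei. For Adra1a, 6 of the 7 cluster intervals hold 0.

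The 16 liver-gene nuclei of the SNI with brush library carried the most Adra1b. It had 495 CPM (431 to 566) there, with UMIs in 16 of 16 nuclei and a median of 8.5 UMIs, against 19.3 CPM in the neurons of the same library. In rodents the alpha1B receptor is a main adrenergic receptor of hepatocytes. Adra1a had 62.2 CPM (41.0 to 90.5) in these nuclei, and after thinning it was seen in 8 of 16 (24.7 to 75.3%), against 25.2% (20.1 to 30.8%) of the neurons of that library, so that share alone does not set these neurons apart from nuclei of another tissue. In liver-gene nuclei 215 Adra1b UMIs came with 1619 UMIs of Alb, the albumin gene. At that ratio the 110 Alb UMIs in SNI with brush neurons would come with 14.6 Adra1b and 1.83 Adra1a UMIs, where 208 and 578 were counted. Whether stray RNA holds these genes at the ratio of liver-gene nuclei was not tested. The values are for all neurons of that library, not for the Tph2 class alone. Among the clusters with at least 5 nuclei of that library, Adra1a ranged from 2.70 CPM in cluster 19 (0.068 to 15.02) to 183 CPM in cluster 0 (135 to 242).

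The genes on either side of the receptors were described by lists. Of the enzymes and transporters for noradrenaline synthesis and clearance, 4 of the 6 tested rose in Tph2 nuclei against both other classes and 0 fell: Ddc, Slc18a2, Maob and Maoa, all of which serotonergic neurons use for serotonin as well. Their log2 differences over glutamatergic nuclei were 7.46, 5.95, 6.37 and 1.55 (adjusted p = 0.0029, 0.0010, 0.0012 and 0.023, edgeR). Of all genes tested, 2.11% rose and 3.02% fell against glutamatergic nuclei, and 1.33% rose and 2.04% fell against inhibitory nuclei. The list's median over glutamatergic nuclei was 3.75, against -0.04 over all genes tested.

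On the Gq side of the alpha1 receptors, 2 of 11 tested genes rose and 2 fell in Tph2 against glutamatergic nuclei, where 2.11% of all genes rose and 3.02% fell. The list median was 0.19, against -0.04 over all genes. Itpr2, a calcium release channel of the endoplasmic reticulum, had 165 CPM in SNI with brush and 65.7 CPM in hot water bath Tph2 nuclei, against 16.8 and 19.6 CPM in the glutamatergic nuclei of these libraries (log2 difference 2.35, SE 0.31, adjusted p = 0.0072, edgeR). Itpr1, another channel of that family, went the other way, with 19.8 CPM (3 UMIs) in SNI with brush and 5.48 CPM (6 UMIs) in hot water bath Tph2 nuclei, against 66.5 and 46.0 CPM in glutamatergic nuclei (-2.63, SE 0.35, adjusted p = 0.0072, edgeR). Plcb1, a phospholipase C that Gq activates, had 46.3 CPM (7 UMIs) in SNI with brush and 72.1 CPM (79 UMIs) in hot water bath Tph2 nuclei, against 385 and 660 CPM in glutamatergic nuclei (-2.97, SE 0.41, adjusted p = 0.0088, edgeR).

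The protein kinase C gene Prkca had 410 CPM in SNI with brush and 1374 CPM in hot water bath Tph2 nuclei, against 140 and 161 CPM in glutamatergic nuclei (log2 difference 2.36, SE 0.42, adjusted p = 0.023, edgeR). Against inhibitory nuclei 1 of 11 genes rose and 2 fell, with a list median of 0.48: Itpr2 rose and Itpr1 and Plcb1 fell (adjusted p = 0.032, 0.019 and 0.020, edgeR). Tph2 nuclei thus had more Itpr2 and less Itpr1 and Plcb1 in both libraries. The Itpr1 levels in Tph2 nuclei rest on 3 SNI with brush UMIs, the limit used here for a count of 0, and 6 hot water bath UMIs.

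Of the Gi/o side of the alpha2 receptors, 0 of 10 tested genes rose and 1 fell in Tph2 against glutamatergic nuclei by edgeR, where 2.11% of all genes rose and 3.02% fell. At an unadjusted p under 0.05 by edgeR it had 7 of 10. The noradrenaline list had 4 of 6, the Gq side 5 of 11, the Gs side 5 of 13 and the list of proteins that end receptor signals 2 of 13. The share of all genes at an unadjusted p is not given here, so such counts have no background in any list. The list median was 0.75, against -0.04 over all genes. The gene that fell was Kcnj3, a G protein-gated potassium channel, with 258 CPM in SNI with brush and 82.1 CPM in hot water bath Tph2 nuclei, against 387 and 386 CPM in glutamatergic nuclei (log2 difference -1.47, SE 0.33, adjusted p = 0.0496, edgeR). Against inhibitory nuclei 0 of 10 passed by edgeR, where 3.38% of all genes passed, and 7 had an unadjusted p under 0.05. Of the Gs side of the beta receptors, 0 of 13 rose and 1 fell against both classes, where 3.02% of all genes fell against glutamatergic and 2.04% against inhibitory nuclei, with list medians of 0.04 over glutamatergic and 0.18 over inhibitory nuclei. This was Adcy8, an adenylyl cyclase, with 19.8 CPM (3 UMIs) in SNI with brush and 16.4 CPM (18 UMIs) in hot water bath Tph2 nuclei, against 237 and 148 CPM in inhibitory and 213 and 237 CPM in glutamatergic nuclei. Its log2 differences were -3.29 over inhibitory (SE 0.34, adjusted p = 0.0046, edgeR) and -3.58 over glutamatergic nuclei (SE 0.33, adjusted p = 0.0022).

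Of 13 tested kinases, arrestins and RGS proteins that end receptor signals, 0 passed in any contrast by edgeR, with 2, 3 and 1 at an unadjusted p under 0.05 for Tph2 minus glutamatergic, Tph2 minus inhibitory and inhibitory minus glutamatergic nuclei. Over all genes 5.13%, 3.38% and 0.242% passed in these contrasts, so a count of 0 among 13 is near the background. Between inhibitory and glutamatergic nuclei 0 genes of any list passed by edgeR, with 2 of 6 at an unadjusted p under 0.05 in the noradrenaline list and 0 or 1 in each other list.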

How the data were processed

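Sorted hindbrain nuclei of 2 pooled libraries, SNI with brush and hot water bath, were analysed from the count tables deposited by the authors, which hold whole-number UMI counts per gene and nucleus and were taken as not normalized. The submitters' processing notes name Cell Ranger 5.0, Seurat with no version, and mm10. The barcode lists held 850 and 723 barcodes, of which 288 and 425 had a column in the tables. No source used here gives the rule of that filter. The libraries held 11298755 and 16344606 UMIs.

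All nuclei had 500 or more genes and a mitochondrial share under 5%, the limits set, and 2 and 3 doublets called by Scrublet were removed. Classes were set per nucleus as described above, liver-gene nuclei first and Tph2 nuclei next. Counts were summed per class and library and scaled to CPM, with Poisson 95% intervals (exact), ratios with exact conditional intervals (0.5 UMI added to both counts of a point value), and shares with Clopper-Pearson intervals. The reads behind UMIs and the animals in a pool are not covered by these intervals, and the limit for a count of 0 is 3 UMIs.

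The class contrasts used edgeR 4.0.16 (R 4.3.3; TMM, filterByExpr, library as block, 2 residual degrees of freedom), with Benjamini-Hochberg adjustment over all genes tested and a threshold of 0.05. DESeq2 1.42.0 was an alternative. Libraries are the replicates of a class contrast. The p-values rest on the spread between these sums, which edgeR moderates with that of the other genes tested, and not on variation between animals. The 2 libraries are also the 2 treatments, so a class difference that varies with treatment is part of that spread. The block pairs sums of the same library. The edgeR test was checked on simulated sums with known changes in inhibitory nuclei, for inhibitory minus glutamatergic nuclei only. That check does not cover the Tph2 contrasts. Clusters were made with scanpy 1.11.5 (2000 variable genes without the 6 receptors, each gene centred within its library, 30 components, 15 neighbours, resolution 1). The members, lists and most tests were chosen with earlier results of these data known. Named outside the receptors are list genes past the threshold, at most 4 per list with the largest change, and the 3 genes most like Adra1a and Adra1b over clusters with at least 10 nuclei among genes with at least 200 UMIs. A further gene is not reported here. Alternatives changed the scaling, the filter on low counts, the block, the class rule, doublets, mitochondrial share, thinning depth and single nuclei.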

Additional observations from a re-analysis of the deposited data

Results flagged for a closer look

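Some class contrasts of Adra1a and Adra1b differed in sign between the 2 libraries, and the difference between the libraries was not tested. For inhibitory over glutamatergic nuclei, the log2 ratio of Adra1a was -0.17 (-0.43 to 0.09) in the SNI with brush library and 1.44 (1.28 to 1.61) in the hot water bath library. That of Adra1b was 0.44 (-0.01 to 0.89) in the SNI with brush library and -0.59 (-1.05 to -0.17) in the hot water bath library. Both SNI with brush intervals held 0, so no direction is shown there. For Tph2 over glutamatergic nuclei, Adra1a was at least 3.01-fold lower in the SNI with brush library, where Tph2 nuclei had 0 UMIs, and had a log2 ratio of 2.61 in the hot water bath library. For Tph2 over inhibitory nuclei, it was at least 2.68-fold lower in the SNI with brush library and had a log2 ratio of 1.17 in the hot water bath library. The SNI with brush side of both Tph2 contrasts rests on 3 nuclei, and its exact intervals of the log2 ratio reached up to -1.28 over glutamatergic and -1.11 over inhibitory nuclei.

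Liver-gene nuclei, which no class contrast uses, had 495 CPM of Adra1b and 36.9 CPM of Adrb3, the beta3 receptor, against 19.3 and 1.58 CPM in the neurons of the same library. Adrb3 overlaps Gm45470 on the other strand. The hot water bath library had no such nucleus.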

How the results depend on the processing

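The number of receptor genes called was 1 for each Tph2 contrast. It became 2 for both without the filter on low counts, where Adra1a passed with log2 differences of 1.38 over glutamatergic and 0.93 over inhibitory nuclei. It became 0 for both with no replicate block, where Adra1b had 1.81 and 2.07, and 0 for Tph2 minus inhibitory nuclei with at most 0.5% mitochondrial UMIs, where Adra1b had 1.75. The replicate block is library, in which all classes of a library were sequenced together. Adra1a, with log2 differences of 1.46 for Tph2 minus glutamatergic and 0.97 for Tph2 minus inhibitory nuclei, had 0.13 and -0.053 with DESeq2. As the mean of the log2 ratios of the 2 libraries it had -0.73 and -1.32 without the nucleus with most UMIs, and -0.66 and -1.36 from per-nucleus CPM. Such a mean is another summary than the edgeR value. It takes in SNI with brush ratios set by the added 0.5 UMI, which were -4.18 and -4.01 with all nuclei. The negative sign is therefore not an effect of leaving out a nucleus or of per-nucleus CPM. Genes called for inhibitory minus glutamatergic nuclei were 34, against 52 with DESeq2, 429 without the filter, 4 without the block and 59 with classes from transmitter UMIs of one kind only. For Tph2 minus glutamatergic nuclei they were 720, against 1800 without the filter and 176 without the block, and for Tph2 minus inhibitory nuclei 474, against 1547 and 68. With 1 library left out, log2 ratios ranged from -4.18 to 2.61 for Adra1a in Tph2 over glutamatergic nuclei and from -4.01 to 1.17 over inhibitory nuclei, the lower values being set by the added 0.5 UMI, and from -0.17 to 1.44 for inhibitory over glutamatergic nuclei. For Adra1b they ranged from 1.47 to 2.21, from 1.77 to 2.05 and from -0.59 to 0.44. Between libraries, the Adra1a limit in Tph2 nuclei was at least 13.7-fold lower in nuclei with at most 0.5% mitochondrial UMIs. In inhibitory nuclei the Adra1a log2 ratio was -1.55 outside the cluster led by Tph2, an alternative chosen after seeing the data. In glutamatergic nuclei it was -0.65 with median-of-ratios size factors, -0.80 as the mean of nuclei and -0.16 with transmitter UMIs of one kind only, where Adra1b had -0.76. Of 156 alternative shares of nuclei, 39 left the interval of the reported share. The alternatives were thinning to 5000 or to 20000 UMIs, no thinning, doublets kept and, for inhibitory nuclei, the cluster led by Tph2 left out. A change of depth by itself changes the share of nuclei with a UMI, and the part of each setting in the 39 was not tested. The 3 SNI with brush Tph2 nuclei set what depth allows.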
